A study of Mus musculus and Rattus norvegicus with 8 samples.

Results

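The splicing factor and hnRNP genes are described here from the lungs of mechanically ventilated mice and rats and of spontaneously breathing controls. Members were all probe sets whose single gene symbol begins with Sf3a, Sf3b, Srsf, Hnrnp, Snrp, Prpf or U2af, or with the older Sfrs or Hnrp. That rule took 100 of the 21162 probe sets of the series, 71 of 12422 on the mouse array and 29 of 8740 on the rat array. They stood for 52 of 8251 mouse genes and 17 of 4736 rat genes, 55 genes in either species and 14 in both. All 52 mouse and all 17 rat genes passed the filter on low signals.

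The products of these genes remove introns from newly made transcripts. The small nuclear ribonucleoproteins, built on rings of Sm proteins, recognise the splice sites, and the U2 particle, with its SF3a and SF3b subunits and the U2AF factors that guide it, settles on the branch site near the 3′ end of the intron. PRP factors join and rearrange the assembling particles, SR proteins bind exons and favour their inclusion when phosphorylated by dedicated kinases, and hnRNP proteins coat the transcript, often oppose inclusion, and also act in export and mRNA decay. Every cell type of the lung uses this machinery, so in whole lung a change of its genes in one cell type is diluted by all others.

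The series compared large tidal volume ventilation, which overstretches the lung, with spontaneous breathing, using 8 arrays of whole-lung total RNA and 2 arrays in each of 4 groups. Ventilated mice were male C57BL6 animals of 7 to 8 weeks given a tidal volume of 17 ml/kg over 6 hours or one of 35 ml/kg over 2 hours. The labels do not say which array had which regimen, so both form 1 group. Control mice, of the same strain, sex and age, breathed spontaneously. Ventilated rats were male Wistar animals of 8 weeks that received 12 ml/kg of room air for 5 hours, and control rats breathed on their own through the same kind of tracheal cannula. No genotype or other agent is labelled for any of the groups. LPS stands among the keywords of the samples' descriptions, but no label says that an animal received it. Species, array type, tidal volume and time differ together between the mouse and the rat comparison and cannot be told apart.

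Each value is the brightness of a probe set, and the deposited arrays share a trimmed mean, 150.1 in mouse and 149.4 to 149.6 in rat. The 4 arrays of a species were then quantile-normalised together, which gives them one common distribution of signals. Signals below the 25th percentile, 14.2 in mouse and 11.5 in rat, were raised to that floor for the tests, and the brightest probe set stood for its gene. Signals are printed after normalisation and without that floor. A level of one gene cannot be set against that of another, since probes differ in brightness. Across the 52 mouse members the arrays correlated at 0.938 to 0.966 on the log2 scale. The highest of these values belonged to ventilated 2 and control 1. Across the 17 rat members the correlations were 0.952 to 0.987, with the 2 ventilated arrays at 0.987 and the 2 controls at 0.98. By their mean over the arrays, the markers of lung epithelium were above the floor, 5 of 5 in mouse and 8 of 8 in rat, although mouse Sftpd was under it on ventilated 1.

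Ventilated arrays were compared with control arrays within each species by limma's moderated test, with Benjamini-Hochberg adjustment over all tested genes and a call at an adjusted p under 0.05. The labels say only that the arrays of a group are separate samples, so these p-values measure the spread between samples, which may be technical. In ventilated mice that spread may also include the difference between the regimens. A permutation test of 2 against 2 arrays cannot give an exact two-sided p below 0.333, and none is reported for single genes.

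In rat lung, 1 splicing gene passed the test. Sf3b1, which encodes the largest subunit of SF3b and helps hold the U2 particle at the branch site, was lower in ventilated rats, at an adjusted p of 0.0287 by limma, and 0 of the 17 genes were higher. Over all 3876 rat genes, 5.78% were called, 2.48% higher and 3.3% lower. Hnrnpd, which encodes an hnRNP that binds AU-rich elements and takes part in mRNA decay, had the largest positive change and did not pass. The other 15 genes had log2 changes between -0.53 and 0.42.

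Rat Sf3b1 had signals of 3.62 and 15.8 on the ventilated arrays, against 53.1 and 43.4 on the control arrays. Both ventilated signals lay below both controls, and ventilated 1 lay under the floor of 11.5. The log2 change was -1.83 ± 0.31 (SE), with a 95% interval of -2.57 to -1.09 (limma adjusted p = 0.0287). The mean of the ventilated arrays, 9.71, lay under the floor, so the gene passed the filter on low signals through the controls alone. The size rests on the floor: it was -0.82 (adjusted p = 0.118) with the floor at the 40th percentile and -2.66 (adjusted p = 0.0828) with a floor of 1. The gene also missed the threshold when the filter was removed (adjusted p = 0.13) and when any of the 4 rat arrays was left out (adjusted p between 0.154 and 0.302), settings under which its log2 change stayed between -2.07 and -1.58. Without an array, no gene at all was called in the rat. A single rat probe set measured the gene. In bulk lung, fewer cells of a type and less RNA per cell cannot be told apart.

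**Figure D1:**
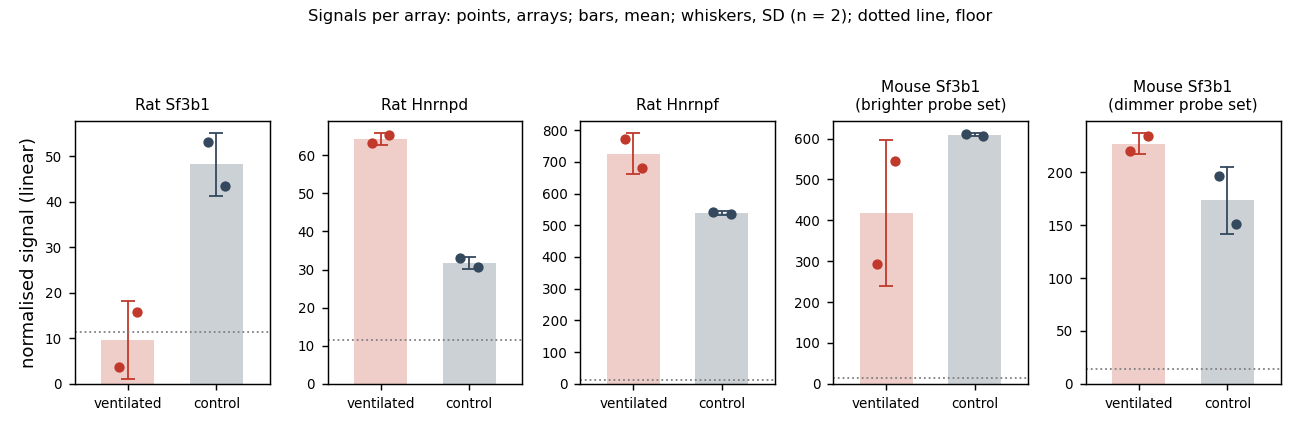
Normalised signals on a linear scale, with ventilated arrays left of control arrays, for rat Sf3b1, Hnrnpd and Hnrnpf and for both mouse probe sets of Sf3b1; points are arrays, bars group means, whiskers SD (n = 2) and the dotted line the floor. Rat Sf3b1 lies near the floor in ventilated rats, and the brighter and dimmer mouse Sf3b1 probe sets move in opposite directions.

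Hnrnpd had signals of 63.1 and 65.3 on the ventilated rat arrays, against 32.9 and 30.6 on the control arrays. The groups did not overlap, and the replicates of each group lay close together. The log2 change was 1.02 ± 0.23 (SE), with a 95% interval of 0.47 to 1.56, or 2.02-fold higher, and the limma adjusted p of 0.0568 missed the threshold. It passed under 4 of 17 alternatives. They were arrays scaled to a common median (limma adjusted p = 0.0498), cyclic loess normalisation (0.0486), a filter at the 50th percentile (0.0477) and the mean of each gene's probe sets (0.0486). A single rat probe set measured Hnrnpd, so the last of these left its own values unchanged and altered only those of other genes. Over its alternatives the adjusted p ranged from 0.0477 to 0.326 and the log2 change from 0.94 to 1.08.

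Hnrnpf, whose product binds runs of G near exons, had signals of 771 and 679 on the ventilated rat arrays, against 543 and 535 on the control arrays. The groups did not overlap. The log2 change was 0.42 ± 0.12 (SE), and the limma adjusted p was 0.103. Sf3b1, Hnrnpd and Hnrnpf were the 3 rat members with an unadjusted p under 0.05, 3 of 17, where 25.3% of all rat genes had one.

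The promoters of Sf3b1 and Hnrnpd are shown for the mouse, because these genes had the 2 largest changes among the rat members and the sequence table at hand holds mouse windows. Each window runs from 250 bases before to 50 after the transcript start in RefSeq's GRCm38.p6. Sf3b1 lies on the minus strand at chr1:55027429-55027728 and Hnrnpd on the minus strand at chr5:99978889-99979188. Both are printed 5′ to 3′ along the gene, and capitals mark matches, on either strand, to the GC box GGGCGG or the ETS core CCGGAAG.
Sf3b1 promoter: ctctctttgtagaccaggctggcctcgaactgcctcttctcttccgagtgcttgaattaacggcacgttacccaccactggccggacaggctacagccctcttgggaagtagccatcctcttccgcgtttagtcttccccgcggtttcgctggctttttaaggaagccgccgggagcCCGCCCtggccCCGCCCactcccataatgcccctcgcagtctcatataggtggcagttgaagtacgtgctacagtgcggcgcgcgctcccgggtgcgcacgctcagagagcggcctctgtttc
Hnrnpd promoter: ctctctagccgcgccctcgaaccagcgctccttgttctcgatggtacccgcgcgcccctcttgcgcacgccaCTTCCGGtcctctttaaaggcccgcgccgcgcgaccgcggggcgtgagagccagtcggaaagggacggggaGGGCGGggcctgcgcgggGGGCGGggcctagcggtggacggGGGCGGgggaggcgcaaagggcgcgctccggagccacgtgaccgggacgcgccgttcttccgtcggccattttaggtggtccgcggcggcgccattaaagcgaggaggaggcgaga
The Sf3b1 window holds 2 GC boxes and 0 ETS cores, and the Hnrnpd window holds 3 GC boxes and 1 ETS core. Neither has a TATAAA or a CCAAT match. The window is 61% G and C for Sf3b1 and 72.3% for Hnrnpd.

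Of the 52 mouse member genes, 46 had promoter windows in the table, 58 in all. A GC box stood in 69% of them, against 35.7% of all 32851 mouse windows of the same length, and an ETS core in 34.5% against 8.86%. A CCAAT box, searched as CCAAT, was found in 50% of member windows and 37.4% of all windows, and the TATA letters TATAAA in 8.62% and 13.6%. The median G and C content was 60.2% in member windows against 52.7% in all. The median ratio of observed to expected CpG was 0.964 against 0.384. All 4 motifs were sought on both strands, and a GC-rich window holds GC-rich letters more often. These matches describe the letters of the windows and were not set against the expression changes.

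The other rat hnRNP genes had smaller differences. Of all 9 hnRNP genes, 5 had a positive and 4 a negative log2 change, with a median of 0.19. Hnrnpc, whose product binds U-rich tracts, had signals of 703 and 748 in ventilated rats, against 650 and 618 in controls. The groups were separate by a narrow gap, and the log2 change was 0.19 ± 0.12 (SE; limma adjusted p = 0.356). Hnrnpa1, a repressor of exon inclusion, had signals of 322 and 343 in ventilated rats, against 210 and 328 in controls. Its lower ventilated signal lay below the higher control, with a log2 change of 0.34 ± 0.23 (SE). The 4 Hnrnpa1 probe sets gave log2 changes from 0.06 to 0.53, all positive. Hnrnpa2b1, a relative of Hnrnpa1, had signals of 622 and 483, against 575 and 667, and overlapped between groups. Its 3 probe sets above the floor gave log2 changes from -0.44 to -0.17.

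Hnrnpab had signals of 844 and 911 in ventilated rats, against 676 and 849 in controls, and the groups overlapped. Hnrnpm, at 23 and 18.5 in ventilated rats against 22.2 and 33.1 in controls, also overlapped. Hnrnpu, whose product is also a scaffold component of the nucleus, had 191 and 198 in ventilated rats, against 147 and 276 in controls. The control pair spanned the ventilated pair. A second Hnrnpu probe set had a log2 change of -0.58 with both ventilated signals below both controls. Hnrnpa3 had 415 and 635 in ventilated rats, against 469 and 570 in controls, a log2 change of -0.01 ± 0.22 (SE). The interval of that difference, -0.55 to 0.53, leaves room for a change of up to about that size in either direction.

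The 4 rat SR genes had 2 positive and 2 negative changes, with a median log2 change of -0.02. Srsf10, known for its repression of splicing when dephosphorylated after heat shock, had signals of 11.3 and 4.4 in ventilated rats, both under the floor, against 15.6 and 17.5 in controls. The groups did not overlap, but the log2 change of -0.53 ± 0.32 (SE; limma adjusted p = 0.36) measures the distance of the controls from the floor. The ventilated mean of 7.84 lay under the floor, so Srsf10 passed the filter through the controls alone. Srsf11 had 366 and 300 in ventilated rats, against 246 and 316 in controls, and overlapped. Srsf2, a classic activator of exon inclusion, had 567 and 514 in ventilated rats, against 565 and 631 in controls. The pairs met at their edges, with a log2 change of -0.15 ± 0.13 (SE). Srsf5 had 192 and 316 in ventilated rats, against 207 and 251 in controls, with the ventilated pair spanning the controls.

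Of the rat genes for particle proteins, Snrpb, which encodes an Sm ring protein, had signals of 821 and 732 in ventilated rats, against 573 and 713 in controls. The groups did not overlap, with a log2 change of 0.28 ± 0.15 (SE; limma adjusted p = 0.305). Snrpd3, of the same ring, had 330 and 218 in ventilated rats, against 235 and 202 in controls, and overlapped, with a log2 change of 0.30 ± 0.23 (SE). Prpf3, a protein of the U4/U6 particle, had 39 and 38.2 in ventilated rats, against 53.6 and 31.6 in controls. Its control pair spanned the ventilated pair, and the log2 change was -0.09 ± 0.32 (SE). Snrnp70, a U1 particle protein gene whose symbol falls outside the prefixes, had 1083 and 1208 in ventilated rats, against 1452 and 1029 in controls, and the pairs overlapped.

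**Figure D2:**
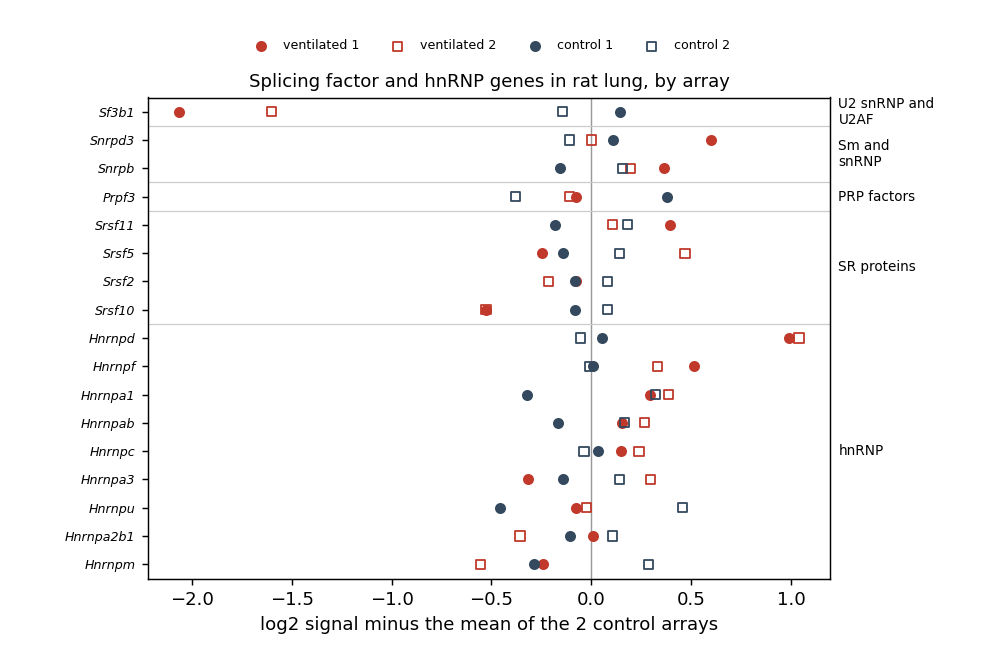
Log2 signal of each of the 17 rat genes on each array minus the mean of its 2 control arrays; red marks ventilated arrays, dark blue controls, filled circles replicate 1 and open squares replicate 2. Sf3b1 stands apart on the left and Hnrnpd on the right, while most other genes have ventilated and control arrays mixed.

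Over the 17 rat genes the ventilated and control pairs were separate in 6, or 35.3%, with 4 above and 2 below. Among all rat genes 55% had separate pairs, 27.8% above and 27.2% below. The 2 members below were Sf3b1 and Srsf10. Their ventilated means lay under the floor, so both passed the filter on low signals through the controls alone. The median log2 change of the members was 0.11, against -0.01 over all genes. The median size of the change, whatever its sign, was 0.25 for the members and 0.30 for all genes. Changes beyond 0.5 on the log2 scale were seen in 3 members, 17.6%, Sf3b1 and Srsf10 among them, and in 28.8% of all rat genes. On each of these counts the members' share lay below that of all rat genes.

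Markers of other cell types also differed between the rat groups. The summed signal of 10 T and NK cell markers was 7163 and 7952 on the ventilated arrays, against 841 and 716 on the controls, with 0 of the 10 at the floor by its mean over the arrays. That of 6 fat markers, of which Plin1 had a mean at the floor, was 2376 and 2648, against 1020 and 849. Of these, Ucp1, Fabp4, Cidea and Cfd were called higher, while Lep went the other way, at 333 and 505 against 735 and 595. The 7 proliferation genes summed to 1510 and 1351, against 915 and 840, and the 3 endothelial markers to 1063 and 1007, against 1892 and 1610. The 8 lung epithelial markers summed to 14043 and 15477, against 17285 and 17700. All 8 had negative log2 changes. Nkx2-1, at 196 and 193 against 471 and 506, and Sftpc, at 1643 and 1969 against 3097 and 2884, were called lower. The part of these cell types in the values of Sf3b1 and Hnrnpd was not tested.

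In mouse lung, 0 of the 52 splicing genes were called, as were 0 of all 6888 mouse genes, or 0%. No member had an unadjusted p under 0.05 by limma either, where 2.58% of all genes did. The log2 changes ran from -0.61 to 1.05 with a median of 0.04, against -0.03 over all genes, and 29 were positive and 23 negative. The limma adjusted p was 0.9997 for every tested mouse gene named from here on, except Sftpc, whose signal was the same on every mouse array. The ventilated and control pairs were separate in 15 members, 28.8%, with 9 above and 6 below the controls. Over all mouse genes that share was 27.6%, with 13% above and 14.5% below. Changes beyond 0.5 were seen in 7 members, 13.5%, against 20.3% of all genes.

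Of the 11 mouse genes with the prefixes Sf3a, Sf3b and U2af, which serve the U2 particle and U2AF, 8 had a negative and 3 a positive log2 change, with a median of -0.04. The U2 genes Snrpa1 and Snrpb2, both with positive changes, are counted with the particle proteins by their prefix. In 5 of the 11, Sf3b1, Sf3b5, Sf3a2, Sf3b3 and Sf3a3, both ventilated signals lay below both controls, and in 0 above. Over all mouse genes 14.5% lay below and 13% above. These 5 make up most of the 6 members with that pattern, the other being Prpf31. The median of the class was -0.03 without control 2 and -0.27 without control 1. The count of negative changes was 6 of 11 without control 2 and 10 of 11 without control 1, since 10 of the 11 genes had a positive deviation on control 2, with a median of 0.26 from the mean of the 4 arrays. Control 2 also had the highest summed signals of cardiac muscle and B cell markers, 7447 and 1880, and the part of these cells in the U2 values was not tested.

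Mouse Sf3b1 had signals of 292 and 545 on the ventilated arrays, against 612 and 607 on the controls, for its brighter probe set. Both ventilated signals were lower, ventilated 1 far more so, and the log2 change was -0.61 ± 0.35 (SE), with a 95% interval of -1.45 to 0.23. Without ventilated 1 it was -0.16. The dimmer Sf3b1 probe set went the other way, with 220 and 234 on the ventilated arrays, against 196 and 151 on the controls, a log2 change of 0.40 with separate pairs. The 2 probe sets of the gene gave opposite directions in the mouse.

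Sf3b5, a small SF3b subunit, had signals of 292 and 375 in ventilated mice, against 413 and 480 in controls. The pairs were separate, with a log2 change of -0.43 ± 0.28 (SE). Sf3b3, another SF3b subunit, had 145 and 154 in ventilated mice, against 166 and 220 in controls, and a log2 change of -0.35 ± 0.31 (SE). Without control 2 its change was -0.14. Sf3a2, of the SF3a complex, had 1025 and 1136 in ventilated mice, against 1191 and 1588 in controls, and a log2 change of -0.35 ± 0.25 (SE). Its second probe set, at 423 and 443 against 159 and 671, had a log2 change of 0.41 and overlapped.

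Sf3a3 had signals of 124 and 112 in ventilated mice, against 151 and 125 in controls, with separate pairs and a log2 change of -0.22. The remaining genes of the class had smaller changes with overlapping pairs. Sf3a1 had 87.8 and 88 in ventilated mice, against 65.4 and 121 in controls, a log2 change of -0.02. The U2AF genes, whose products read the polypyrimidine tract and the AG at the end of the intron, had log2 changes of -0.04 for U2af2, -0.03 for U2af1l4 and 0.09 for U2af1. U2af1 had signals of 323 and 292 in ventilated mice, against 273 and 307 in controls, and overlapped. Sf3b2 and Sf3b6 had log2 changes of 0.06 and 0.11. The Sf3b6 protein touches the branch point adenosine.

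The mouse genes for Sm and other particle proteins had 6 positive and 2 negative changes, with a median of 0.04 and a range of -0.23 to 0.42. The largest change was that of Snrp1c-ps2, a name of a pseudogene, with signals of 256 and 327 in ventilated mice, against 255 and 184 in controls. Its lower ventilated signal stood just above the higher control. Snrpc, a protein of the U1 particle, had 199 and 181 in ventilated mice, against 159 and 165 in controls, with separate pairs and a log2 change of 0.23 ± 0.29 (SE). The Sm ring genes Snrpb, Snrpd3, Snrpe and Snrpg had log2 changes of 0.03, -0.17, -0.23 and 0.18, all with overlapping pairs. Snrpa1 and Snrpb2, which encode U2 particle proteins, had log2 changes of 0.05 and 0.03.

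Among 8 mouse PRP genes, 5 changes were positive and 3 negative. Prpf38a, whose product joins the spliceosome before its activation, had the largest mouse change of all members, with signals of 112 and 72 in ventilated mice, against 27.3 and 68.9 in controls. The pairs were separate only by the gap between 72 and 68.9. The log2 change was 1.05 ± 0.53 (SE), with a 95% interval of -0.24 to 2.33, and it lay between 0.39 and 1.68 when single arrays were left out. Prpf31, which joins the U4/U6 and U5 particles, had 64.6 and 59.3 in ventilated mice, against 72.9 and 108 in controls, with separate pairs and a log2 change of -0.52 ± 0.37 (SE) (-0.825 to -0.228 without single arrays).

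Prpf8, the protein at the catalytic centre, had signals of 330 and 278 in ventilated mice, against 308 and 407 in controls, with overlapping pairs and a log2 change of -0.22. Prpf19, a ubiquitin ligase of the spliceosome, had 151 and 161 in ventilated mice, against 167 and 141 in controls, a log2 change of 0.02. A second, dimmer Prpf19 probe set gave -0.54. Prpf6, Prpf39, Prpf38b and Prpf4b had log2 changes of 0.08, 0.24, -0.30 and 0.04.

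Of the 16 mouse hnRNP genes, 10 had positive and 6 negative changes, with a median of 0.17. In 4 of them, Hnrnpu, Hnrnpab, Hnrnpc and Hnrnpul2, both ventilated signals lay above both controls, and in 0 below. Over all mouse genes 13% lay above and 14.5% below. Hnrnpu had signals of 140 and 121 in ventilated mice, against 106 and 49.3 in controls, a log2 change of 0.85 ± 0.44 (SE), and of 0.29 without control 2 and 1.42 without control 1. Its other probe set had 23.5 and 17 in ventilated mice, against 13.4 and 11.9 in controls. Both of these control signals lay under the floor, so its log2 change of 0.49 measures the distance of the ventilated arrays from the floor. Hnrnpab had 190 and 200 in ventilated mice, against 138 and 178 in controls, a log2 change of 0.31 ± 0.30 (SE). Hnrnpc had 81.9 and 79.7, against 74.5 and 64.9, a log2 change of 0.22.

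Hnrnpd, 2.02-fold higher in ventilated rats, stood close to its controls in the mouse, with signals of 456 and 465 in ventilated mice, against 461 and 501 in controls. The pairs overlapped, and the log2 change was -0.06 ± 0.25 (SE), with a 95% interval of -0.66 to 0.54. Hnrnpa1 had 69.4 and 55.2 in ventilated mice, against 60.5 and 35.2 in controls, and overlapped, with a log2 change of 0.42 ± 0.42 (SE). Hnrnpa2b1 had 905 and 1104 in ventilated mice, against 1256 and 944 in controls, and overlapped. Hnrnpk, whose product binds C-rich tracts, had 305 and 422 in ventilated mice, against 407 and 369 in controls. Hnrnph3 had 66.4 and 207 in ventilated mice, against 162 and 182 in controls. Hnrnpr had 112 and 289 in ventilated mice, against 157 and 265 in controls. Both were lowest on ventilated 1 and highest on ventilated 2. Without ventilated 1, 15 of the 16 hnRNP genes had a positive change, and without ventilated 2 it was 8 of 16.

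**Figure D3:**
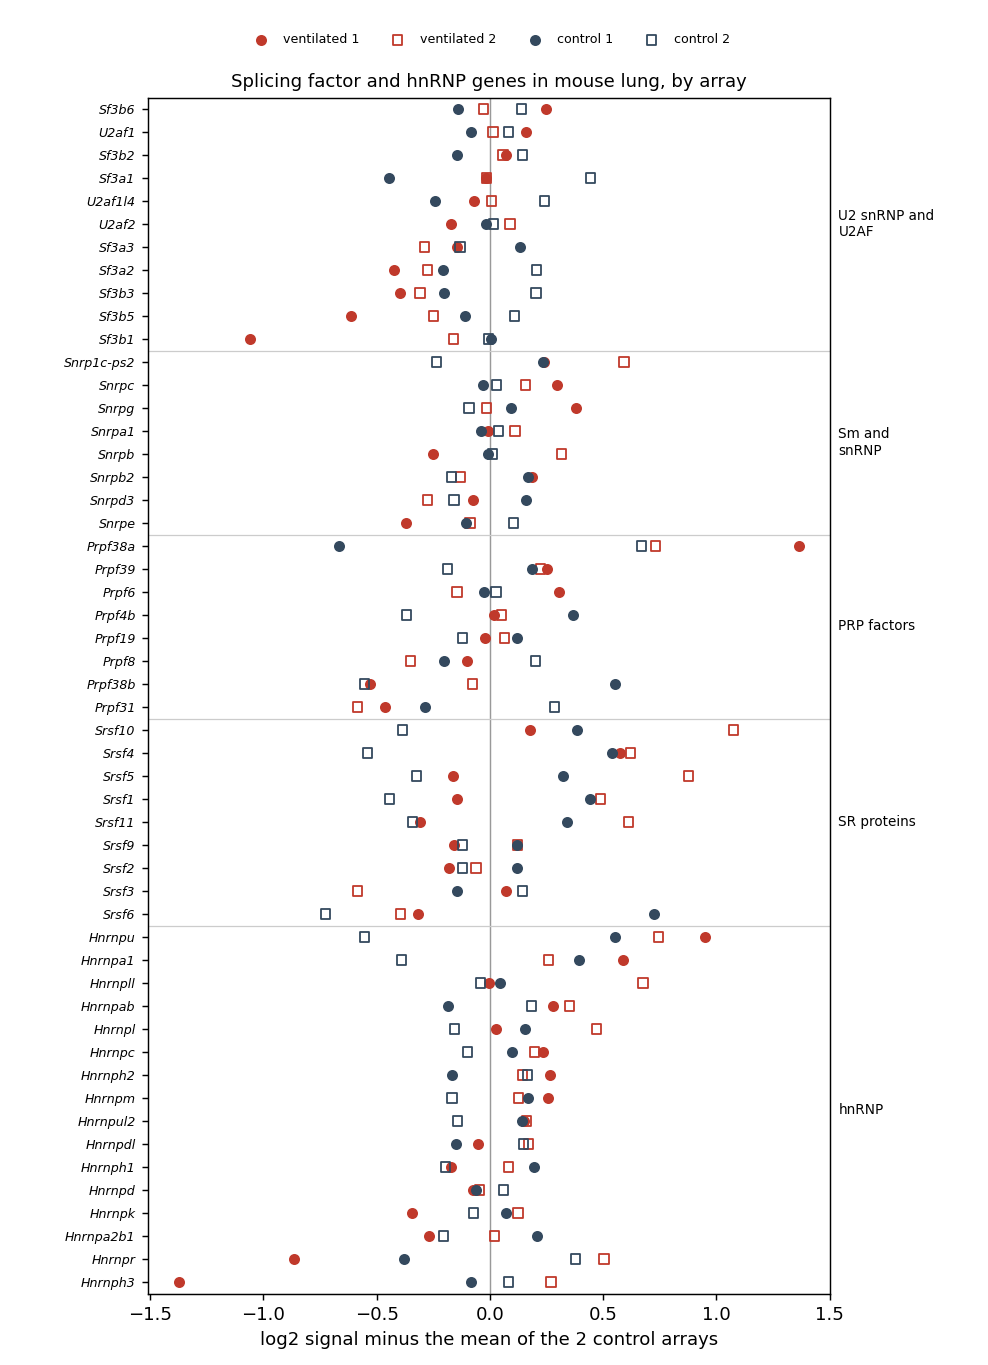
Log2 signal of each of the 52 mouse genes on each array minus the mean of its 2 control arrays, grouped by role; red marks ventilated arrays, dark blue controls, filled circles replicate 1 and open squares replicate 2. Ventilated and control arrays are mixed for most genes, and the SR genes spread widely between arrays of 1 group.

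The SR genes were the class that differed most between mouse arrays of the same group. The 2 ventilated mouse arrays may have had different regimens, which cannot be told apart from other differences between them. Over 9 genes the median absolute log2 difference was 0.63 between the 2 ventilated arrays and 0.68 between the 2 controls, against 0.41 and 0.35 over all mouse genes. The deviation of each gene from its mean over the 4 arrays had a median of -0.14 on ventilated 1, 0.32 on ventilated 2, 0.18 on control 1 and -0.50 on control 2. It was positive in 2, 6, 8 and 1 of the 9 genes on these arrays. Ventilated 2 and control 1 were the high arrays for SR genes, and ventilated 1 and control 2 the low ones, across the study's groups.

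Srsf5 showed this most plainly, with signals of 546 and 1124 on ventilated 1 and 2, against 765 and 489 on control 1 and 2. The log2 change between groups was 0.36 ± 0.41 (SE) and took the opposite sign without ventilated 2 (-0.17). Srsf11 had 302 and 570 in ventilated mice, against 473 and 295 in controls, and Srsf1, the founding SR protein, 97.2 and 151, against 146 and 79.1. Srsf6 was high on control 1 alone, with 342 and 325 in ventilated mice, against 706 and 258 in controls. Srsf10 had 93.4 and 174 in ventilated mice, against 108 and 63.3 in controls, and a log2 change of 0.63 ± 0.45 (SE), which lay between 0.175 and 1.1 without single arrays. Its second probe set gave -0.05.

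By the brightest probe set, Srsf4 was the only SR gene with separate pairs in the mouse, at 289 and 298 on the ventilated arrays, against 282 and 133 on the controls. Its log2 change was 0.60 ± 0.41 (SE), and 0.06 without control 2. Srsf2 had 1534 and 1665 in ventilated mice, against 1890 and 1597 in controls, a log2 change of -0.12, while its other probe set, at 341 and 328 against 302 and 246, had separate pairs and a log2 change of 0.29. Srsf3, a small SR protein that also serves mRNA export, had 297 and 188 in ventilated mice, against 255 and 312 in controls. Srsf9 was level at a log2 change of -0.02.

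The Srsf5 promoter is shown as that of the SR gene with the widest ventilated pair. It lies on the plus strand of GRCm38.p6 at chr12:80945249-80945548, is taken from the same RefSeq table, and carries capitals for the same 2 motifs.
Srsf5 promoter: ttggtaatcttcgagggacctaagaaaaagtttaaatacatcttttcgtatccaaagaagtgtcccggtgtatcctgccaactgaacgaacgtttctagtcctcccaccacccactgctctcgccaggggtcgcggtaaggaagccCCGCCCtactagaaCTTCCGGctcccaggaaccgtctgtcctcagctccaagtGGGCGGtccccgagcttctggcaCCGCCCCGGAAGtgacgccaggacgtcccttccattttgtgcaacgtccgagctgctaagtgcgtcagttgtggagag
It holds 3 GC boxes and 2 ETS cores, 1 of which overlaps a GC box.

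By their median, the kinases that phosphorylate SR proteins were also higher on ventilated 2 and control 1. The median deviation of 8 kinase genes, Prpf4b among them, was -0.04 on ventilated 1, 0.12 on ventilated 2, 0.28 on control 1 and -0.30 on control 2, positive in 3, 7, 7 and 2 genes. Clk3 had signals of 252 and 270 in ventilated mice, against 288 and 128 in controls. Clk4 had 202 and 249 in ventilated mice, against 273 and 134 in controls, and Clk1 758 and 733, against 926 and 498. All 3 were lowest on control 2 and highest on control 1, though Clk1 was not higher on ventilated 2 than on ventilated 1. Other kinases departed from the pattern. Dyrk1a, at 315 and 435 in ventilated mice against 499 and 512 in controls, was highest on control 2. Srpk1, at 94.9 and 127 against 93 and 114, was lowest on control 1. None of the 8 kinases was called.

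A measure of RNA or labelling quality divided the mouse arrays in the same way. The 3′ to 5′ signal ratio of the Gapdh control probe sets, which grows as transcripts are shortened or labelled incompletely, was 1.53 on ventilated 1 and 2.48 on ventilated 2, against 2.96 on control 1 and 1.16 on control 2. For actin it was 1.8 and 2.21, against 2.18 and 1.88. Spike-in signals stood at a median of 2.62 times the control mean on ventilated 1 and 0.96 on ventilated 2, against 0.99 and 1.01 on the controls. The parts of RNA quality and of the ventilation regimen in the SR and kinase values were not tested. The rat table holds no control probe sets.

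**Figure D4:**
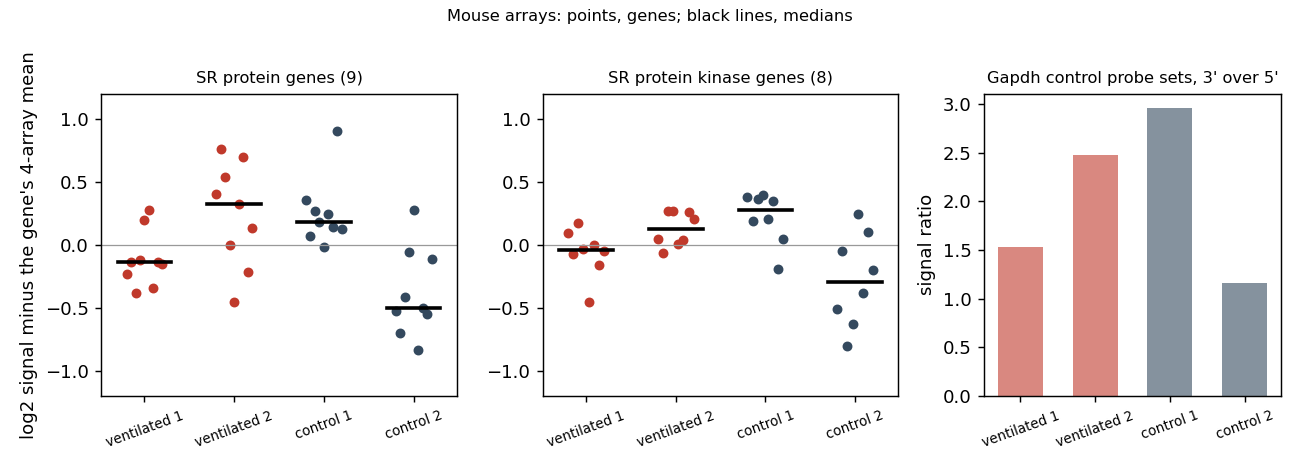
Left and middle, log2 signal minus the gene's mean over the 4 mouse arrays for 9 SR genes and 8 SR kinase genes, with points for genes and black lines for medians; right, the 3′ to 5′ signal ratio of the Gapdh control probe sets. By the medians and the bars, ventilated 2 and control 1 are high in all 3 panels, and control 2 is low.

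The summed signals of some cell type markers divided the mouse arrays as the SR genes did. The 11 T and NK cell markers, with Cd3g and Cd8a at the floor by their means, summed to 404 and 729 on the ventilated arrays, against 691 and 538 on the controls. The 10 proliferation genes, with Mcm6 at the floor by its mean, summed to 863 and 1336, against 1148 and 892, and the 6 endothelial markers to 3609 and 4933, against 5117 and 3864. In all 3 sums ventilated 2 and control 1 were the higher arrays, but not every gene followed its sum. Endothelial Ace had 939 and 692 on the ventilated arrays, against 450 and 589 on the controls. Pcna, of the proliferation list, had 434 and 437, against 362 and 334, and the T cell gene Lat had 134 and 95, against 120 and 79.8. The part of these cell types in the SR and kinase values was not tested. Other lists divided the arrays differently. The 8 neutrophil markers summed to 8404 and 1796 on the ventilated arrays, against 1026 and 2057 on the controls, so that ventilated 1 stood apart. S100a8 and S100a9, at 4267 and 2744, made up most of the sum on ventilated 1. Mpo was lowest on that array (10.3), and Ltf was highest on control 2 (363). The 8 cardiac markers summed to 3830 and 3171, against 3956 and 7447, with control 2 the highest. The 6 B cell markers summed to 581 and 1247, against 1118 and 1880. The 5 epithelial markers summed to 25007 and 23998, against 25481 and 24234. This sum cannot show whether the epithelial content was stable, because its bright markers are held by the distribution that quantile normalisation gives every array. Sftpc had the same signal, 8462, on every mouse array. Sftpd, the dimmest of these markers, had 13.8 and 19.8 on the ventilated arrays, against 28.7 and 16.4 on the controls.

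The 14 genes measured in both species allowed a direct comparison. By the brightest probe set of each gene, the sign of the change was the same in 9 of 14. It was positive in both species for 6 and negative in both for 3, namely Sf3b1, Srsf2 and Hnrnpa2b1. The other mouse probe sets of Sf3b1 and Srsf2 had positive log2 changes, 0.40 and 0.29, and that of Hnrnpa2b1 a negative one, -0.11. Across these 14 genes the log2 changes had a Pearson r of 0.327 and a Spearman rho of 0.0198. Without Sf3b1 the Pearson r was -0.331, so that 1 gene gave the pooled value its sign. Genes are not independent replicates, and no p is attached.

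**Figure D5:**
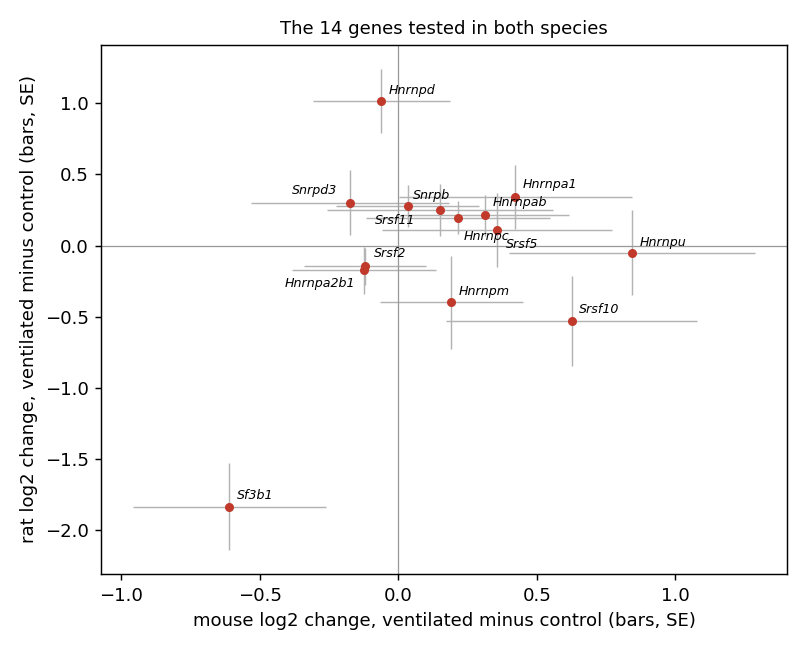
Rat against mouse log2 change, ventilated minus control, for the 14 genes tested in both species, with bars for SE. Each gene is shown by its brightest probe set, by which Sf3b1 is negative on both axes and Hnrnpd is high on the rat axis alone.

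In a joint model of all 8 arrays, which averages the effects of both species, 0 of 14 splicing genes were called by limma, against 0 of 2256 shared genes, or 0%. An unadjusted p under 0.05 was found for 2 of the 14 and for 10.9% of all shared genes. Sf3b1 had an average log2 change of -1.22 ± 0.24 (SE; limma adjusted p = 0.163). Because the size of its rat change rests on the floor, the average did too. It was -0.714 with the floor at the 40th percentile and -1.64 with a floor of 1. The change was -1.44 without ventilated mouse array 2 and -0.995 without ventilated mouse array 1, the array with the lower signal of the brighter mouse probe set. Hnrnpd had an average of 0.48 ± 0.15 (SE; limma adjusted p = 0.366). The median over the 14 genes was 0.18, against 0 over all shared genes to 2 decimals.

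The difference between the species was tested as an interaction, rat minus mouse. By limma 0 of the 14 genes were called, where 0.133% of all shared genes were, 0.0443% higher and 0.0887% lower, and 2 had an unadjusted p under 0.05, against 12.7% of all. Hnrnpd differed by 1.08 ± 0.31 (SE; limma adjusted p = 0.207) and Sf3b1 by -1.22 ± 0.48 (SE; limma adjusted p = 0.342). For Sf3b1 the size of the rat change rests on the floor, and the mouse change is that of the brighter of its opposed probe sets. Srsf10 had opposite signs in the 2 species, with a difference of -1.15 (limma adjusted p = 0.457), and its rat value rests on the floor. No member's change was shown to differ between rat and mouse.

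No gene of the other splicing lists was called. Of 29 mouse and 11 rat genes for other core spliceosome proteins, 0 were called, with median log2 changes of 0.05 and 0.11. In the rat, Bud31, of the activated spliceosome, had signals of 433 and 470 in ventilated animals, against 298 and 338 in controls. The pairs were separate, with a log2 change of 0.51 ± 0.14 (SE; limma adjusted p = 0.0901). The RNA helicase gene Ddx39a had 578 and 459 in ventilated rats, against 293 and 407 in controls, a log2 change of 0.58 (limma adjusted p = 0.148). Sart1, of the tri-snRNP, had 96.2 and 124 in ventilated rats, against 144 and 177 in controls, a log2 change of -0.55 (limma adjusted p = 0.171).

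Of 35 mouse and 18 rat genes for other splicing regulators, 0 were called. Khdrbs1, which encodes the signal-responsive RNA-binding protein Sam68, had 125 and 151 in ventilated rats, against 89.1 and 67.8 in controls. The pairs were separate, with a log2 change of 0.83 ± 0.22 (SE; limma adjusted p = 0.0855), while in the mouse its change was -0.74. Rbmx, an hnRNP relative, had 161 and 195 in ventilated rats, against 126 and 86 in controls, a log2 change of 0.77 (limma adjusted p = 0.114). Cirbp, the cold-inducible RNA-binding protein, had 26.2 and 25.7 in ventilated rats, against 15.9 and 12.8 in controls, a log2 change of 0.87 (limma adjusted p = 0.142). In the mouse, Pcbp4, a poly(C)-binding protein, had 53.5 and 49 in ventilated animals, against 111 and 114 in controls, a log2 change of -1.14 ± 0.33 (SE). Tial1, a regulator of splicing and of stress granules, had 317 and 222 in ventilated mice, against 160 and 107 in controls, a log2 change of 1.02 ± 0.36 (SE). Both mouse genes had separate pairs and an unadjusted limma p under 0.05, and neither passed the adjusted test.

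The exon junction and export list had 9 tested mouse genes and 4 rat genes, and 0 were called. Nxf1, the main mRNA export receptor, had 395 and 401 in ventilated rats, against 530 and 568 in controls, a log2 change of -0.46 ± 0.12 (SE; limma adjusted p = 0.0844), and 0.42 in the mouse. Pnn, which encodes an exon junction protein, had 104 and 88.6 in ventilated mice, against 62 and 48.4 in controls, with a log2 change of 0.81 ± 0.35 (SE). In the rat Pnn had 128 and 109 in ventilated animals, against 130 and 211 in controls, a log2 change of -0.49 ± 0.26 (SE; limma adjusted p = 0.308), and the difference between the species did not pass (limma adjusted p = 0.29). The 3 rat SR kinase genes had a median log2 change of -0.32, with 0 called.

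Ribosomal and proteasome genes, 2 other sets of genes used by every cell, are given for scale. Among cytosolic ribosomal protein genes 0 of 26 mouse and 0 of 37 rat genes were called, with medians of 0.09 and 0.11. Of 24 rat proteasome genes 2 were higher, and their median was 0.40. Those called were Psmb8 (limma adjusted p = 0.0389) and Psmb9 (limma adjusted p = 0.0449), subunits of the immunoproteasome. Of 36 mouse proteasome genes, 0 were called, with a median of 0.08.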

How the data were processed

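Total RNA from 4 mouse and 4 rat lung samples was, per the labels, copied from an oligo-dT primer into cDNA, turned into biotinylated cRNA and measured on Affymetrix oligonucleotide arrays. The deposited values are signal intensities per probe set on a linear scale, and the trimmed means show that the authors scaled each array to a common mean. The sources used here do not give the software or the target of that scaling. Probe sets were named with the supplied annotation of each array; 396 mouse and 308 rat probe sets with several symbols were not members.

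Within a species the arrays were quantile-normalised, floored at the 25th percentile and put on a log2 scale. Each gene took its brightest probe set, and genes with a mean at or below the 25th percentile were left out. limma 3.58.1 in R 4.3.3 (lmFit, eBayes with a variance trend) gave two-sided tests in 4 fits: mouse, rat, both together with species as a term, and their interaction. The fits were tested on simulated data.

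Values are given for every member called, for the 5 members of smallest p in each direction and for preset genes; the other members are given in part, and other lists by at most 5 genes. Clk1, Srpk1, some single cell type markers and the mouse change of Nxf1 were named after their values were seen. Members, lists and rules were chosen with earlier results of these data known. Arrays have no counting depth, and their number limits precision. Same-numbered arrays deviated from their group means with a correlation of -0.285 in mouse and -0.106 in rat, and the labels give the numbers no shared source. Alternatives were other scalings, floors, filters, probe set rules and variance priors, a replicate block, and each array left out.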

Additional observations from a re-analysis of the deposited data

How the results depend on the processing

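Rat Sf3b1 kept its call in 9 of the 16 alternatives in which it was tested, with limma adjusted p-values from 0.0264 to 0.047 in those 9. Among the 9 were the mean of probe sets and the use of all probe sets, which leave a gene with a single probe set unchanged. The crossed pairing block, added after the data were seen, was also among them. The count of rat members called lower was 0, not 1, with the floor at the 40th percentile, a floor of 1, no filter, or a filter at the 50th percentile, which left Sf3b1 untested, and it was 0 to 0 with single arrays left out. With 1 array in a group the lone array is assumed to vary like the other groups, and 0 rat genes were called. The count called higher was 1, Hnrnpd, under a common median, cyclic loess, the filter at the 50th percentile and the mean of probe sets. In the joint fit 1 member, Sf3b1, was called lower with the crossed pairing as a block, which was added after the data were seen, and 0 to 1 with single arrays left out. The mouse calls stayed at 0 in all 17 alternatives.

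The median log2 change of members without single arrays ran from -0.0373 to 0.0854 in mouse, 0.007 to 0.227 in rat, -0.00764 to 0.284 in the joint fit and -0.255 to 0.0865 in the interaction. The joint median was 0.284 under a common median scaling. With the replicate block, rat Sf3b1 had an adjusted p of 0.0341, and with the crossed pairing 0.0345. The numbers do not pair the samples by their labels, and over all rat genes the block left 77 called lower.

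Of single genes, 27 values changed sign, none of them called; the causes were not tested. Without single arrays, the log2 change ran from -0.335 to 0.0867 for Hnrnpa2b1, -0.337 to 0.126 for Hnrnpk, -0.0955 to 0.143 for Prpf19, -0.269 to 0.618 for Srsf1, -0.587 to 0.0683 for Srsf3 and -0.166 to 0.867 for Srsf5 in mouse. It ran from -0.351 to 0.007 for Hnrnpa2b1, -0.514 to 0.407 for Hnrnpu, -0.346 to 0.154 for Snrnp70 and -0.238 to 0.466 for Srsf5 in rat, and from -0.248 to 0.0401 for Hnrnpm jointly. The others were, under a common median, mouse Srsf2 (0.0815), rat Hnrnpa2b1 (0.000166), Hnrnpu (0.0311) and Srsf2 (0.0179), and joint Srsf2 (0.0497). With values as deposited, they were mouse Prpf19 (-0.024) and Srsf2 (0.027). With the mean of probe sets they were mouse Prpf19 (-0.257), Sf3a2 (0.0293) and Srsf2 (0.087) and joint Srsf2 (0.0217), and with the floor at the 40th percentile joint Hnrnpm (0.0247). Among genes with several probe sets above the floor, the signs disagreed for 8 mouse genes and agreed for 5. In the rat they disagreed for 1 gene and agreed for 4. The class counts rest on the brightest probe set alone. Signals near the floor limit the size of change for rat Sf3b1 and Srsf10.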

Other observations

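Probe sets that list a splicing gene together with a second symbol stood outside the rule, and their values were looked up after the members' results were known. The rat probe set of Srsf3, an SR protein gene, and LOC100910660 had signals of 186 and 169 in ventilated rats, against 115 and 109 in controls, a log2 change of 0.67 with separate pairs. A second probe set of the same pair of symbols, at 36.6 and 50.2 against 32.2 and 38.9, overlapped. The rat Snrpe group, which encodes an Sm ring protein and its near copies, had 914 and 1061 in ventilated rats, against 792 and 730 in controls, a log2 change of 0.37 with separate pairs. Snrpd2 and Snrpd2l had 113 and 107 in ventilated rats, against 41.4 and 104 in controls.

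In the mouse, the brighter Hnrnpa3 and Gm6793 probe set had 1052 and 1127 in ventilated animals, against 1665 and 1097 in controls, a log2 change of -0.31. The dimmer one had 56.2 and 35.3, against 15.3 and 24.2, a log2 change of 1.21. The 2 probe sets of these symbols thus had opposite signs. The probe set of Snrpd2 and Gm5848 had 515 and 593 in ventilated mice, against 670 and 715 in controls, a log2 change of -0.33 with separate pairs. Snrpd1 and Gm14277 shared a probe set with 44.6 and 35.1 in ventilated mice, against 26.7 and 32.6 in controls. In the rat, the brighter probe set of Snrpn and Snurf had 131 and 149 in ventilated animals, against 102 and 150 in controls. None of these probe sets was tested.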
